A study of Mus musculus with 8 samples.

Results

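The proteasome is the large protease that degrades most short-lived and damaged proteins of a cell, usually after they have been tagged with ubiquitin. Its core particle is a barrel of stacked alpha and beta rings with the cutting sites inside. Regulatory particles cap the barrel, bind the tagged protein, remove the ubiquitin, unfold the chain and feed it in. Interferon-gamma replaces the cutting beta subunits by inducible ones, and this immunoproteasome makes many of the peptides that MHC class I molecules present to T cells. The genes described here are the 48 of 35539 listed mouse genes whose name is Psma, Psmb, Psmc, Psmd, Psme, Psmf or Psmg followed by a number. They are the alpha and beta ring genes of the core, the 3 inducible beta genes, the 6 ATPases (Psmc) and 11 other subunits of the regulatory particle (Psmd), 5 activators or inhibitors (Psme, Psmf1), 7 assembly factors (Psmg, Psmd5, Psmd9, Psmd10) and 2 tissue-restricted core genes.

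RNA was sequenced in 8 bulk tumors grown from 105K cells, a Tsc2-null mouse line that stands in for lymphangioleiomyomatosis, a lung disease of cells with active mTOR. By the study's methods the cells grew under the skin of female C57BL/6J mice with an intact immune system, 6 weeks old at purchase. Each of 4 treatments had 2 tumors: the vehicle carboxymethylcellulose, loratadine (listed as 25 mg/kg/day), rapamycin (0.25 mg/kg/day), or the 2 drugs together at unchanged doses. By the methods the schedules differed, with loratadine given every other day and rapamycin on runs of consecutive days with rest between. Loratadine blocks the histamine receptor H1 and rapamycin inhibits mTOR complex 1. The numbers 1 and 2 after a treatment only name its tumors. All tumors carried the same deletion, derive from 1 cell line and contain cells of the host, and the sources differ on whether loratadine was given orally or into the peritoneum. Tumors receiving rapamycin alone or in combination entered treatment at larger volumes, so starting volume and rapamycin cannot be told apart. Each tumor has a code whose first letter is taken here as the cage. It was B or F in the 4 tumors without rapamycin and A, C, D or G in the 4 with it. Cage and rapamycin can therefore not be told apart either. The tumor codes end in L or R, taken here as the left and right side. The 3 right-side tumors (loratadine 1 and 2, both 2) all had loratadine and only both 1 had it on the left, so side and loratadine are separated by 1 tumor.

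Values are TPM, a share of all transcripts corrected for gene length and scaled to a fixed total, which keeps no read depth. Sums over the listed genes ran from 993546 to 994645 TPM, and sequencing depths are unknown. The labels call the tissue a mammary tumor, but of 4 milk protein genes Csn2, Wap and Lalba stayed at or below 0.264 TPM in every tumor and Csn3 read 174 TPM in vehicle 1 and 0.692 to 11.7 TPM in the others, while the renal genes Pax8 (23.9 to 62.8 TPM) and Pax2 (13.0 to 30.5 TPM) were detected throughout. Tsc2 itself was listed at 42.0 to 78.1 TPM, and TPM of a whole gene does not show which exons the reads cover. Adipocyte markers were high in loratadine 1, loratadine 2 and both 1 (summed level 260 to 317 TPM), muscle markers in both 2 (94.1 TPM) and mast cell markers in rapamycin 2 (294 TPM). Each drug was tested with limma on log2(TPM + 1) in a model with both drugs as terms, which sets 4 tumors with a drug (an arm) against 4 without it, over 15095 genes that reached 1 TPM in 2 or more tumors. A gene is said to have passed where its Benjamini-Hochberg adjusted p over these genes was under 0.05. Of the 48 proteasome genes 46 entered the test.

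Proteasome genes were expressed at high and even levels. Together they held 0.596% (rapamycin 1) to 0.744% (loratadine 1) of the listed TPM. The 14 constitutive core genes summed to 2588 TPM in vehicle 1, 2875 in vehicle 2, 3182 and 3156 with loratadine, 2727 and 2850 with rapamycin, and 2706 and 2911 with both drugs, so that the rapamycin arms overlapped. The 17 genes of the regulatory particle summed to 2583 and 2754 TPM with vehicle, 2826 and 2886 with loratadine, 2215 and 2428 with rapamycin, and 2417 and 2517 with both drugs. All 4 sums with rapamycin lay below all 4 without it. Within a tumor the most abundant core gene stood 3.80 to 4.59 times above the least abundant one. Psma3, an alpha ring gene, was the most abundant core gene in every tumor, at 328 to 439 TPM.

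**Figure D1:**
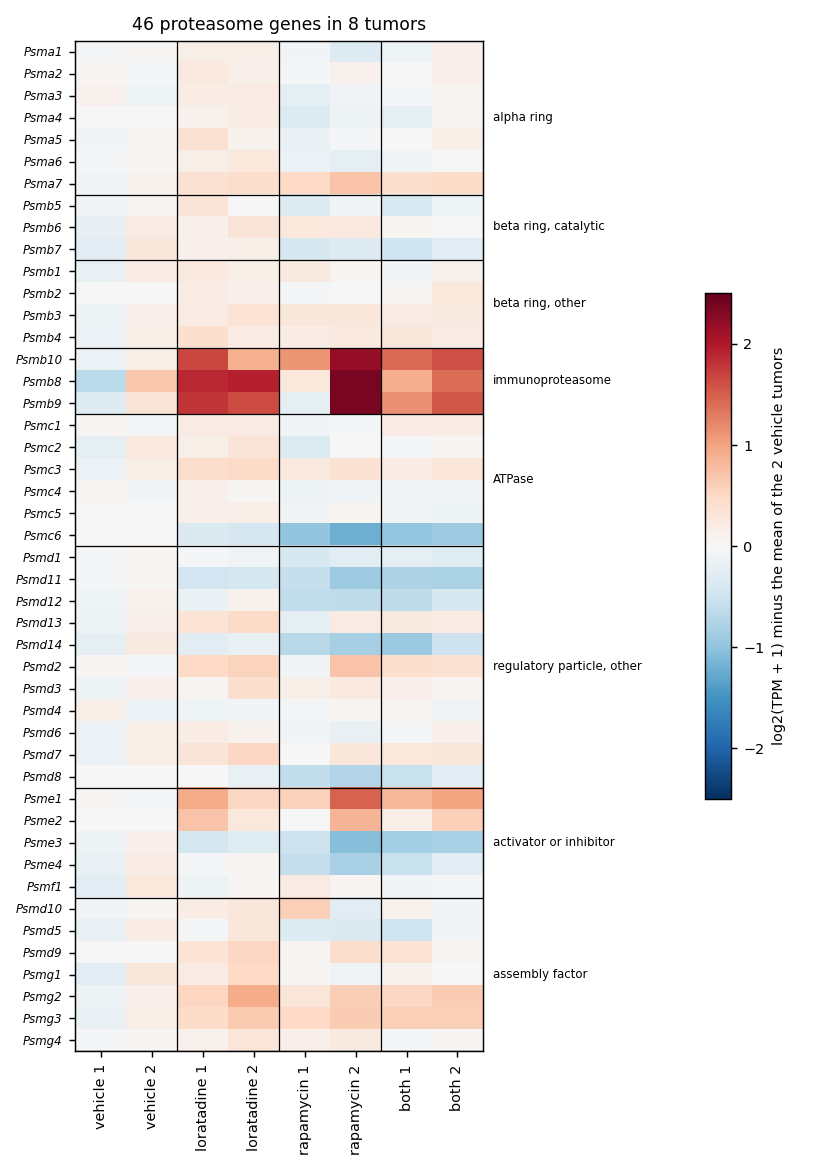
Heat map of 46 proteasome genes (rows, grouped by role) in 8 tumors (columns). Colour is log2(TPM + 1) minus the mean of the 2 vehicle tumors, red higher and blue lower. Most core genes are pale in all tumors, the 3 immunoproteasome genes are red in both loratadine tumors, in rapamycin 2 and in both tumors with the 2 drugs, while in rapamycin 1 Psmb10 alone is, and a group that includes Psmc6, Psmd11, Psmd14 and Psme3 is blue in the 4 tumors with rapamycin.

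The spread of a gene over the 8 tumors, as the standard deviation (SD) of log2(TPM + 1), had a median of 0.16 for the constitutive core, 0.21 for the regulatory particle, 0.26 for the assembly factors, 0.35 for the activators and 0.99 for the immunoproteasome. The median over all genes tested was 0.38, and 0.31 for the 3412 of them with a mean of at least 50 TPM. The most even member was an ATPase at 0.09. The medians of the core and regulatory genes lay below that of the abundant genes, and that of the 3 inducible genes above it.

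For rapamycin, 7 of the 46 members passed as lower (15.2%), beside 7.88% of all genes tested, and 0 passed as higher, beside 12.0% of all genes. The 7 were the ATPase gene Psmc6, the regulatory particle genes Psmd8, Psmd11, Psmd12 and Psmd14, and the activator genes Psme3 and Psme4. None of the 14 constitutive core genes, 3 immunoproteasome genes and 7 assembly factors passed. An unadjusted limma p under 0.05 was found for 12 members, 10 lower and 2 higher. Over all 15095 genes it was found for 5659, of which 2129 were lower and 3530 higher. The median log2 fold change of the members was -0.04, against 0.12 over all genes tested. After median-of-ratios scaling, which sets the median over all genes to 0.02, the median of the members was -0.16 and 11 passed as lower, the core genes Psma6 and Psmb7 among them. In bulk tumors, fewer cells of a type and less RNA per cell cannot be told apart.

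**Figure D2:**
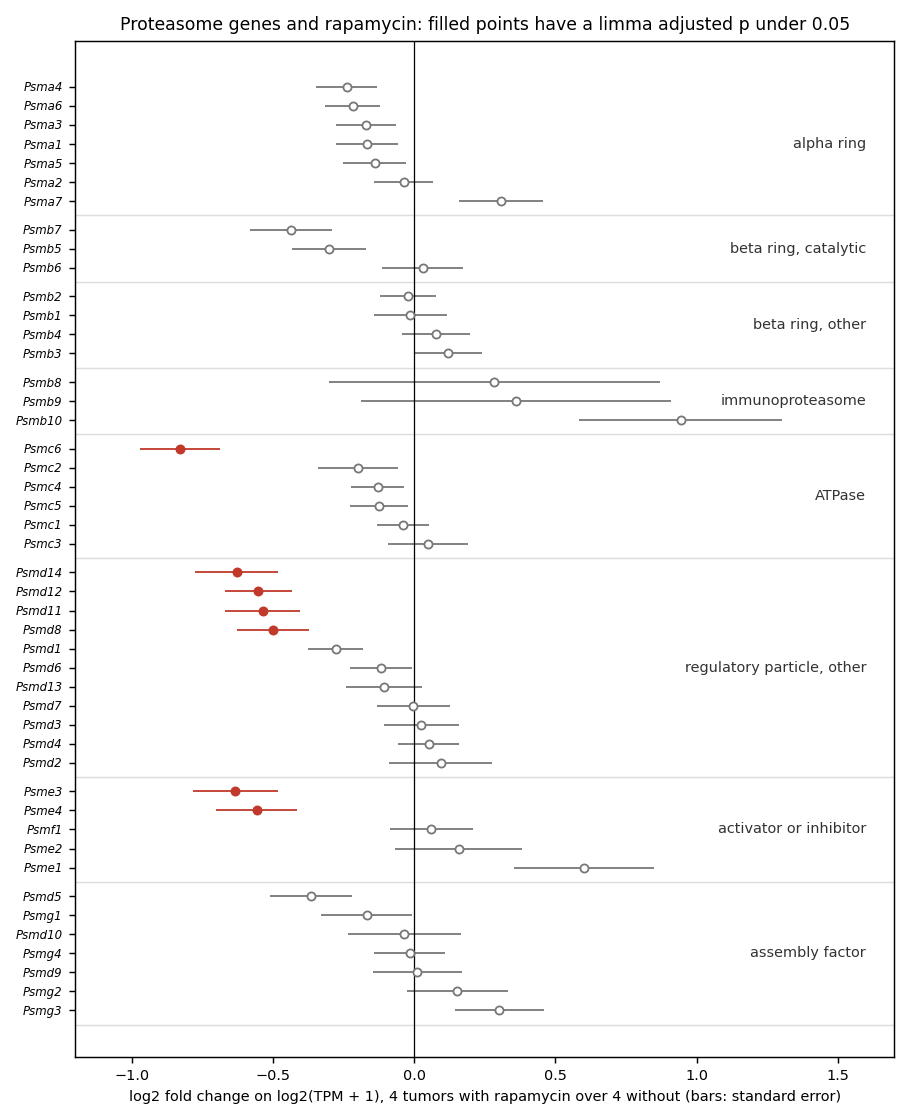
Log2 fold change of each of 46 proteasome genes on log2(TPM + 1), 4 tumors with rapamycin over 4 without (horizontal axis, bars are the standard error), grouped by role. Filled red points have a limma adjusted p under 0.05. The 7 filled points, from -0.83 (Psmc6) to -0.50 (Psmd8), all lie in the regulatory particle and the activators, and the 14 constitutive core genes lie between -0.44 and 0.31 without passing.

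Psmc6, 1 of the 6 ATPases that unfold substrates, changed most. It stood at 184 and 188 TPM with vehicle, 145 and 138 with loratadine, 93.2 and 78.7 with rapamycin and 94.1 and 98.4 with both drugs. Each tumor with rapamycin was below each tumor without it, and the loratadine tumors lay between the vehicle tumors and those with rapamycin. The mean was 91.1 ± 8.57 TPM with rapamycin and 164 ± 26.0 TPM without (SD, n = 4 each), which is 43.7% lower (log2 fold change -0.83, standard error 0.14, limma adjusted p = 0.012). The other 5 ATPase genes did not pass. Psmc2, next in size, read 96.5 and 134 TPM with vehicle, 126 and 143 with loratadine, 90.2 and 114 with rapamycin and 110 and 119 with both drugs. Its arms overlapped (log2 fold change -0.20, standard error 0.14, adjusted p = 0.33).

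Psmd14, the enzyme that cuts ubiquitin chains from substrates before they enter the core, was at 150 and 203 TPM with vehicle, 145 and 154 with loratadine, 108 and 98.2 with rapamycin and 91.3 and 122 with both drugs. The arms did not overlap, and vehicle 2 stood above the rest. Its log2 fold change was -0.63 (standard error 0.15, limma adjusted p = 0.025), or 35.3% lower. Psmd12, a scaffold subunit of the lid that holds Psmd14, read 95.0 and 111 TPM with vehicle, 91.3 and 109 with loratadine, 66.4 and 65.5 with rapamycin and 66.1 and 77.6 with both drugs. Again all tumors with rapamycin were lower (log2 fold change -0.55, standard error 0.12, limma adjusted p = 0.020). Vehicle and loratadine tumors overlapped for this gene.

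Psmd11 and Psmd8, also lid subunits, fall outside the rule by which members were named and are given because they passed. Psmd11 was at 124 and 129 TPM with vehicle, 90.7 and 93.3 with loratadine, 84.0 and 66.5 with rapamycin and 73.5 and 72.7 with both drugs (log2 fold change -0.54, standard error 0.13, limma adjusted p = 0.028). As with Psmc6, the loratadine tumors lay below the vehicle tumors and above those with rapamycin. Psmd8 read 390 and 400 TPM with vehicle, 395 and 348 with loratadine, 259 and 236 with rapamycin and 267 and 327 with both drugs (log2 fold change -0.50, standard error 0.13, limma adjusted p = 0.033). The nearest tumors of its arms, loratadine 2 and both 2, were 348 and 327 TPM. By their place in the particle, a division made after the values were seen, 4 of 8 lid genes under the name rule passed as lower. Their median was -0.31 (range -0.63 to 0.02). Of the 3 other non-ATPase genes Psmd1, Psmd2 and Psmd4, 0 passed, with log2 fold changes from -0.28 to 0.09. Over all genes 7.88% passed as lower. Because the division was drawn with the calls known, the contrast between these counts is no test.

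Both activators that fell act mainly in the nucleus. Psme3 forms a ring that opens the core without ubiquitin, and was at 100.5 and 119 TPM with vehicle, 80.2 and 88.6 with loratadine, 74.4 and 51.6 with rapamycin and 59.9 and 62.0 with both drugs. The arms were separate, with rapamycin 1 (74.4 TPM) next to loratadine 1 (80.2 TPM), and the log2 fold change was -0.63 (standard error 0.15, limma adjusted p = 0.026). Psme4, a single large protein that caps the core and is known for its part in histone degradation, read 45.0 and 58.8 TPM with vehicle, 50.1 and 53.3 with loratadine, 33.6 and 29.1 with rapamycin and 34.8 and 42.5 with both drugs (log2 fold change -0.56, standard error 0.14, limma adjusted p = 0.032). It passed but falls outside the naming rule, and its nearest values across the arms were 45.0 and 42.5 TPM. The annotation places a gene on the other strand over Psme4, a gene on the same strand over Psmd12, and genes on both strands over Psmd14, and whether the counting used strand is not given in the sources used here.

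**Figure D3:**
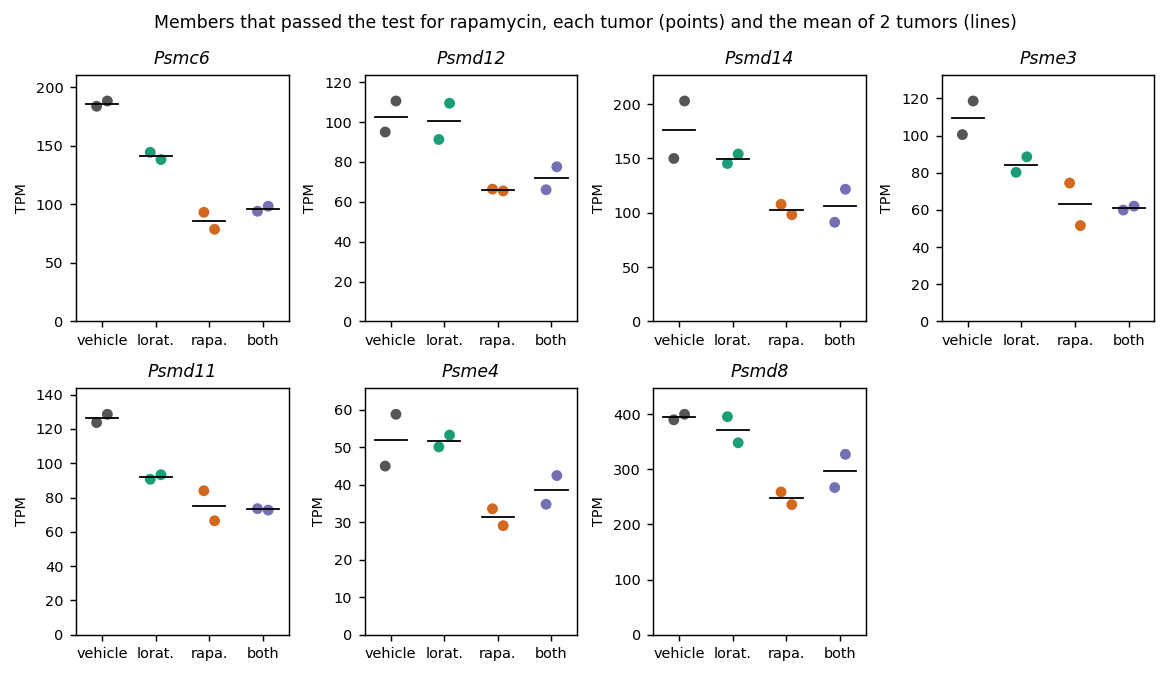
TPM (vertical axes, from 0) of the 7 members that passed for rapamycin in each of 8 tumors by treatment, with points for tumors and lines for the mean of 2 tumors. In every panel the 4 tumors with rapamycin lie below the 4 without it, with the nearest tumors of the arms at 98.4 and 138 TPM for Psmc6 and at 42.5 and 45.0 TPM for Psme4.

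Psmc6 kept its call under all 20 alternative settings, with log2 fold changes of -0.95 to -0.73 and adjusted p of 0.0034 to 0.043. The other 6 lost theirs under 5 to 9 settings, always with the same direction and a log2 fold change of -0.43 or lower. Leaving out vehicle 2 or both 1 left only Psmc6 (1 of 46, beside 3.22% and 3.38% of all genes), as did tumor side in the model (beside 3.28%). Without loratadine 2 or rapamycin 1 there were 2 members (beside 5.18% and 3.74%). Without loratadine 1 or rapamycin 2 there were 5 (beside 6.58% and 6.62%). Without both 2 the same 7 passed (beside 7.79%). Without vehicle 1 there were 4 (beside 4.10%), which were Psmc6, Psmd12, Psmd14 and the core gene Psmb7. In the fits that called 1 member, and in that without loratadine 2, the share of members was no higher than that of all genes. Arms that do not overlap in TPM were found for 10 of the 46 members in the lower direction, beside 10.5% of all genes. In the higher direction they were found for 0 of the 46, beside 15.7%. The 10 are the 7 above with Psmb5, Psmc4 and Psmd1. The summed endothelial and T cell markers separated the same arms, and the summed fibroblast markers overlapped between them. The 4 endothelial markers summed to 32.7 to 46.8 TPM without rapamycin and 19.0 to 30.1 with it (1 of 4 passed as lower). The 4 T cell markers summed to 3.1 to 16.7 and 18.1 to 58.1 TPM (3 of 4 passed as higher). None of these 8 markers was at 0, but 2 of the 4 T cell markers in vehicle 1 and 3 in vehicle 2 were at or under 1 TPM. The 4 fibroblast markers summed to 105 to 586 TPM without rapamycin and 247 to 3047 TPM with it (1 of 4, Col1a1, passed as higher, and 4 of 4 had an unadjusted p under 0.05). Their median log2 fold change was 0.89 for rapamycin and 1.69 for loratadine. For loratadine 0 passed and 3 of 4 had an unadjusted limma p under 0.05. Of the 4 renal markers Pax8 passed as higher and Krt8 as lower. Their part in the lower proteasome genes was not tested.

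The constitutive cutting subunits did not pass for rapamycin in the model with both drugs. Psmb7 passed as lower after median-of-ratios scaling, with array weights and without vehicle 1, and Psmb5 with array weights, so the division between core and regulatory genes depends on these settings. Psmb5, the chymotrypsin-like site, was at 210 and 228 TPM with vehicle, 272 and 217 with loratadine, 174 and 208 with rapamycin and 167 and 202 with both drugs. Its arms were narrowly separate at 208 and 210 TPM, and it did not pass (log2 fold change -0.30, standard error 0.13, adjusted p = 0.13). Psmb7, the trypsin-like site, read 173 and 258 TPM with vehicle, 232 and 235 with loratadine, 160 and 169 with rapamycin and 150 and 177 with both drugs. Only vehicle 1 among the tumors without rapamycin fell into the range of those with it (log2 fold change -0.44, standard error 0.15, adjusted p = 0.066). Psmb6, the caspase-like site, stood at 222 and 293 TPM with vehicle, 279 and 318 with loratadine, 307 and 301 with rapamycin and 265 and 256 with both drugs, with overlapping arms (log2 fold change 0.03, standard error 0.14, adjusted p = 0.90).

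In the alpha ring, whose tails form the gate of the core, 6 of 7 genes had a negative log2 fold change for rapamycin and Psma7 a positive one. Psma7 was at 198 and 221 TPM with vehicle, 273 and 284 with loratadine, 296 and 342 with rapamycin and 275 and 286 with both drugs. The 2 vehicle tumors were the lowest and rapamycin 2 the highest. Over the arms it did not pass (log2 fold change 0.31, standard error 0.15, adjusted p = 0.17), and for rapamycin against vehicle it did (0.60, standard error 0.15, limma adjusted p = 0.048). Psma4 read 195 and 193 TPM with vehicle, 208 and 221 with loratadine, 152 and 178 with rapamycin and 166 and 197 with both drugs, where both 2 crossed into the other arm (log2 fold change -0.24, standard error 0.11, adjusted p = 0.15). Of the non-cutting beta genes 0 of 4 passed. Psmb3 and Psmb4, which changed most among them, ran from 213 to 296 and from 202 to 297 TPM over the 8 tumors, with log2 fold changes of 0.12 (standard error 0.12) and 0.08 (standard error 0.12).

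Assembly factors, which hold subunits in place while the particles are built and then leave, stayed between 19.3 and 91.6 TPM. Psmd5, a chaperone of the ATPase ring, was at 66.7 and 85.6 TPM with vehicle, 72.8 and 91.6 with loratadine, 60.1 and 58.8 with rapamycin and 53.5 and 71.9 with both drugs (log2 fold change -0.37, standard error 0.15, adjusted p = 0.11). Only both 2 reached the other arm. Psmg3, a chaperone of the alpha ring, read 19.3 and 24.6 TPM with vehicle, 30.5 and 34.7 with loratadine, 31.3 and 34.3 with rapamycin and 33.2 and 33.4 with both drugs. Its vehicle tumors were the lowest 2 of 8, and it did not pass for rapamycin (log2 fold change 0.30, standard error 0.16, adjusted p = 0.20). The tissue-restricted core genes Psma8 of the testis and Psmb11 of the thymus were at or below 0.597 TPM in all tumors and did not enter the test.

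Promoters were searched for an element of NFE2L1, the transcription factor best known for raising many proteasome genes when the proteasome is inhibited. It acts through antioxidant response elements, and its part in these tumors was not tested. In the RefSeq promoters of GRCm38.p6, from 250 bases before to 50 after each start site, 40 of the 48 members have an entry. The core of that element was searched as TGACNNNGC on both strands, any match to the longer TGACTCAGC being counted in it. It was found in 6 of the 40 members (15%) and in 14.0% of the 27025 genes with an entry. The longer TGACTCAGC was in 0 members and 0.503% of these genes. Of the 7 members that fell, Psmc6, Psmd12 and Psme4 hold a match, as do 3 of the 33 others, a split that was not tested. They are shown for comparison, with the match in capitals, those that fell first.
Psmc6, chr14:45329587-45329615, plus strand: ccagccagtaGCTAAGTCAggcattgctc
Psmd12, chr11:107479278-107479299, plus strand: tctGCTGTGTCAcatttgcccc
Psme4, chr11:30771758-30771786, plus strand: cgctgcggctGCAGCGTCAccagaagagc
Psmb5, chr14:54618024-54618052, minus strand: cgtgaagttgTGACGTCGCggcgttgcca
Psmb6, chr11:70525338-70525366, plus strand: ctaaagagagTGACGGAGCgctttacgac
Psmd9, chr5:123228149-123228177, plus strand: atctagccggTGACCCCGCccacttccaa
In the first 3 the match lies on the strand opposite to the gene, in the last 3 on the gene's own strand. A match is a string of letters and not a binding site, and no match says only that these letters are not in this window.

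Genes of the same machinery outside the name rule were read from a list of 10, of which 9 were found. Uchl5 and Usp14, the ubiquitin-removing enzymes that dock on the regulatory particle, passed as lower for rapamycin with Ube3c, a ligase bound to the proteasome, and Txnl1, a thioredoxin bound to it. Usp14 was at 99.9 and 96.1 TPM with vehicle, 83.5 and 129 with loratadine, 50.7 and 62.2 with rapamycin and 59.2 and 68.3 with both drugs (log2 fold change -0.75, standard error 0.16, limma adjusted p = 0.019). Uchl5 stood at 68.5 to 78.0 TPM without rapamycin and 45.1 to 52.9 TPM with it (log2 fold change -0.58, standard error 0.11, limma adjusted p = 0.015). The ubiquitin receptor gene Adrm1, which holds Uchl5 on the particle, was at 81.6 to 103 TPM and did not pass (-0.08, standard error 0.10, adjusted p = 0.61), nor did Sem1, Ecpas, Pomp and Akirin2.

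Of 14 genes that regulate proteasome transcription, 1 passed as higher (7.14%, beside 12.0% of all genes), the small Maf factor Mafk, which pairs with NFE2L1. It was at 26.1 to 31.8 TPM without rapamycin and 37.4 to 45.1 TPM with it (log2 fold change 0.53, standard error 0.12, limma adjusted p = 0.024). Nfe2l1 stood at 177 to 221 TPM with overlapping arms (log2 fold change 0.03, standard error 0.11, adjusted p = 0.89), a transcript level that says nothing of the processed protein. Of 16 genes that supply or carry ubiquitin, 3 passed as lower (18.8%, beside 7.88% of all genes). Rad23b, a shuttle that brings ubiquitinated proteins to the proteasome, read 174 and 193 TPM with vehicle, 103 and 110 with loratadine, 63.8 and 54.6 with rapamycin and 61.5 and 82.1 with both drugs (log2 fold change -1.10, standard error 0.22, limma adjusted p = 0.017). Its order by treatment was that of Psmc6. The other 2 were the ubiquitin-activating enzyme gene Uba6 (-0.56, standard error 0.16) and Faf2 (-0.46, standard error 0.13), while the ubiquitin genes Ubb and Rps27a did not pass. For comparison with other large complexes, 3 of 7 genes of the chaperonin CCT (42.9%) passed as lower (Tcp1, Cct7 and Cct8, median of the list -0.48). Of 81 cytosolic ribosomal protein genes 1 passed as lower (1.23%) and 3 as higher (3.70%, median of the list 0.18). Over all genes 7.88% passed as lower and 12.0% as higher.

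Pairs of treatments were compared with 2 tumors each, from 4 group means with 4 residual degrees of freedom. These pairs share tumors with each other and with the arms, so their values are set side by side and are not independent. For rapamycin against vehicle, 4 members passed as lower, beside 5.21% of all genes, and 2 as higher, beside 6.65%. Psmc6 changed by -1.11 (standard error 0.15, limma adjusted p = 0.014), Psmd11 by -0.75 (standard error 0.16), Psme3 by -0.81 (standard error 0.21) and Psmd8 by -0.67 (standard error 0.17). The higher ones were Psmb10 and Psma7. Psmb10, the inducible trypsin-like site, changed by 1.65 (standard error 0.39, limma adjusted p = 0.043). For both drugs against vehicle, 3 passed as lower, beside 3.42% of all genes, and 0 as higher, beside 7.18%. The lower ones were Psmc6 (-0.94, standard error 0.15, limma adjusted p = 0.019), Psmd11 (-0.78, standard error 0.16) and Psme3 (-0.83, standard error 0.21). For both drugs against vehicle Psmb10 passed as higher with a mean of at least 5 TPM, Psmb10 and Psme1 with array weights or with only the groups compared, and Psmb10, Psmb9 and Psme1 without rapamycin 1 or rapamycin 2. For rapamycin against vehicle these 3 passed as higher without rapamycin 1. Leaving out 1 tumor took these counts to between 0 and 6 calls of either direction: for rapamycin against vehicle 0 remained without vehicle 1 or vehicle 2, and for both drugs against vehicle 0 remained without either vehicle tumor or either tumor with both drugs. After median-of-ratios scaling Psma7 and Psmb10 no longer passed for rapamycin against vehicle, and 7 members passed as lower. For the pairs, shares of all genes under changed settings are not given here, so these counts have none beside them. In the arms the share of all genes passing as lower was 10.8% after this scaling and 7.88% before it.

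Loratadine changed no member beyond the test. In the model with both drugs 0 of 46 passed, beside 0% of all genes, with a smallest adjusted p of 0.59. An unadjusted limma p under 0.05 was found for 3 members (Psmc1, Psmd13 and Psmg2, all higher), beside 1255 of 15095 genes. The median log2 fold change was 0.14, with 38 of 46 positive, against 0.10 over all genes, of which 10017 of 15095 were positive, and it was 0.03 after median-of-ratios scaling. Psmc1, an ATPase, was at 222 and 223 TPM with loratadine and 222 and 218 with both drugs. It read 199 and 186 TPM with vehicle and 183 and 185 with rapamycin. Its log2 fold change for loratadine was 0.23 (standard error 0.09, limma adjusted p = 0.59). Its loratadine arms did not overlap, as for Psmb2, beside 2.42% of all genes in this direction and 0.325% in the lower one, in which 0 members stood. For loratadine against vehicle 0 members passed, beside 0.0199% of all genes (10 at an unadjusted p under 0.05, beside 1826 of 15095 genes). With the letter of the tumor codes (taken as the cage) as a block 0 passed as well. For both drugs against rapamycin 0 passed, beside 0% (0 members at an unadjusted p under 0.05, beside 359 of 15095 genes). For both drugs against loratadine 0 passed, beside 0%. In that pair 4 members had an unadjusted p under 0.05 (Psmc6, Psmd12, Psmb7 and Psmd14, all lower), beside 2204 of 15095 genes. The interaction of the drugs passed for 0 members, beside 0.00662% of all genes (3 at an unadjusted p under 0.05, beside 719 of 15095 genes). No member was thus shown to respond to rapamycin differently with loratadine.

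The immunoproteasome genes had the widest range of all members. Psmb8, the inducible chymotrypsin-like site, was at 24.0 and 63.3 TPM with vehicle, 148 and 153 with loratadine, 47.2 and 207 with rapamycin and 74.7 and 105 with both drugs. Psmb9 is the inducible subunit that takes the place of Psmb6. It read 13.8 and 21.9 TPM with vehicle, 63.0 and 55.8 with loratadine, 14.8 and 95.1 with rapamycin and 39.9 and 52.7 with both drugs. Rapamycin 2 was the highest tumor and rapamycin 1 stood among the vehicle tumors for both genes, so that the group of 2 rapamycin tumors spanned nearly the whole range. Psmb10 read 50.5 and 62.1 TPM with vehicle, 180.5 and 104 with loratadine, 121 and 260.5 with rapamycin and 151 and 173 with both drugs. Here the 2 vehicle tumors alone were low.

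Inducible subunits made up 12.8% and 15.9% of the TPM of the 6 cutting subunits with vehicle, 33.3% and 28.9% with loratadine, 22.2% and 45.4% with rapamycin and 31.4% and 34.3% with both drugs. The vehicle tumors had the lowest shares, and rapamycin 1 and rapamycin 2 differed by more than the other treatments did among themselves. Psmb8 reached 0.115 of the TPM of Psmb5 in vehicle 1 and 0.998 in rapamycin 2, Psmb9 reached 0.0482 of Psmb6 in rapamycin 1 and 0.316 in rapamycin 2, and Psmb10 reached 0.240 of Psmb7 in vehicle 2 and 1.54 in rapamycin 2. Over the 8 tumors Psmb5, Psmb6 and Psmb7 varied by 1.63, 1.43 and 1.72 times from lowest to highest, and Psmb8, Psmb9 and Psmb10 by 8.62, 6.87 and 5.16 times.

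**Figure D4:**
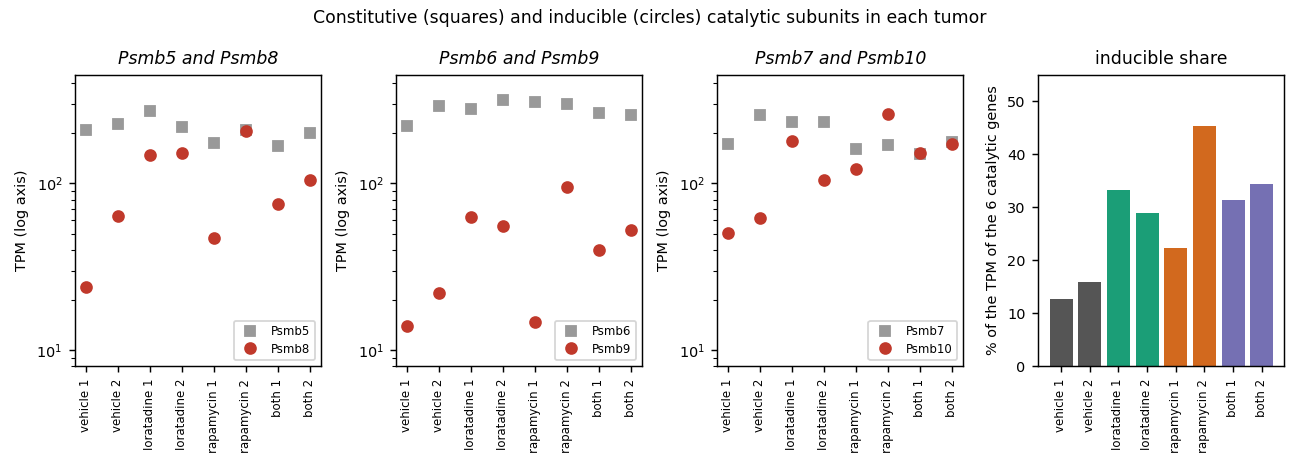
TPM of each constitutive cutting subunit (squares) and its inducible counterpart (circles) in 8 tumors, on log axes, and the share of the 3 inducible genes in the TPM of all 6 (bars, percent, from 0). The squares span less than the circles, which are highest in rapamycin 2, where the share reaches 45.4%.

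None of the 3 passed in the model with both drugs. For rapamycin the log2 fold changes were 0.28 for Psmb8 (standard error 0.59, adjusted p = 0.75), 0.36 for Psmb9 (standard error 0.55, adjusted p = 0.66) and 0.94 for Psmb10 (standard error 0.36, adjusted p = 0.097). For loratadine they were 0.88 (standard error 0.59, adjusted p = 0.67), 0.99 (standard error 0.55, adjusted p = 0.62) and 0.57 (standard error 0.36, adjusted p = 0.66). With tumor side in the model the values for loratadine were -0.04 for Psmb8 (standard error 0.95), 0.32 for Psmb9 (standard error 0.92) and 0.03 for Psmb10 (standard error 0.59). The values also depended on rapamycin 2. Without it Psmb9 was 1.65 higher with loratadine (standard error 0.19, limma adjusted p = 0.039), Psmb8 1.51 higher (standard error 0.36, limma adjusted p = 0.13), and the log2 fold changes for rapamycin turned to -0.35 for Psmb8 and -0.31 for Psmb9, neither past the test. Without rapamycin 1 the log2 fold change of Psmb9 was 0.61 for loratadine and 0.74 for rapamycin, and without loratadine 1 Psmb10 passed as higher for rapamycin (1.24, standard error 0.32, limma adjusted p = 0.046).

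The activator subunits Psme1 and Psme2, which interferon-gamma also induces, followed a similar order with a smaller range. Psme1 stood at 139 and 133 TPM with vehicle, 260 and 194 with loratadine, 203 and 378 with rapamycin and 239 and 271 with both drugs (log2 fold change for rapamycin 0.60, standard error 0.25, adjusted p = 0.12). Its vehicle tumors were the lowest and rapamycin 2 the highest. Psme2 read 159 and 162 TPM with vehicle, 264 and 194 with loratadine, 162 and 289 with rapamycin and 180 and 243 with both drugs (log2 fold change 0.16, standard error 0.22, adjusted p = 0.64). A gene named Psme2b, a near copy of Psme2, was listed at 12.3 to 17.6 TPM without rapamycin and 25.8 to 46.7 TPM with it (log2 fold change 1.19, standard error 0.21, limma adjusted p = 0.012). Reads of the 2 copies may have been split between them, so both are uncertain. The other 4 copies listed by name, of Psmb5, Psmb6 and Psmb7, were at or below 0.487 TPM.

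Psmb9 lies back to back with Tap1, which pumps the peptides into the endoplasmic reticulum, and the genes share the DNA between their start sites. That stretch of 225 bases is printed because both genes start at its ends, and their values by tumor are given beside each other. It is chr17:34187331-34187555 of GRCm38.p6, plus strand, with Psmb9 leaving to the left and Tap1 to the right, and its 1 CCAAT box, searched on both strands, in capitals.
Psmb9 to Tap1: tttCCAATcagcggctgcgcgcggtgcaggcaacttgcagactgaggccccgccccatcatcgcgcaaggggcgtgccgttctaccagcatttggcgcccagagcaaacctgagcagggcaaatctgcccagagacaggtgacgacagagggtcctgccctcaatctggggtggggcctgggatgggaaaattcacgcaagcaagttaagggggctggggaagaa
CCAAT is in a promoter of 41.1% of the genes with an entry and of 14 of the 40 members. A form of the interferon-stimulated response element, GAAA and GAAA with 2 bases between them, was searched on both strands and is in 3.99% of these genes and in 5 of 40 members, of which Psme1 is the interferon-induced one. Its match is shown in capitals and starts 9 bases past the start site, on the strand opposite to the gene.
Psme1, chr14:55578493-55578522, plus strand: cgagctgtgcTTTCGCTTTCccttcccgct

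Tap1 read 27.7 and 35.9 TPM with vehicle, 64.7 and 68.2 with loratadine, 22.4 and 89.0 with rapamycin and 39.4 and 51.6 with both drugs. As for Psmb9, the highest tumor was rapamycin 2 and the 3 lowest were vehicle 1, vehicle 2 and rapamycin 1. Of 12 genes of antigen processing, 1 passed for rapamycin, as higher (8.33%, beside 12.0% of all genes). It was Tapbp, which loads class I molecules, at 87.1 to 194 TPM without and 196 to 275 TPM with the drug (log2 fold change 0.78, standard error 0.23, limma adjusted p = 0.049). The class I genes H2-K1 and B2m read 781 and 1331 TPM in rapamycin 1, which was the lowest of the 8 tumors for each.

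Genes of the interferon-gamma response were read from a list of 12. Cxcl9, a chemokine induced by interferon-gamma, ranged from 4.45 TPM in rapamycin 1, the lowest tumor, to 83.8 TPM in rapamycin 2, the highest. Ifng itself was below 2.0 TPM everywhere and highest, at 1.98 TPM, in rapamycin 2. Of the 12 genes of this list only the receptor gene Ifngr1 passed for rapamycin (log2 fold change 1.09, standard error 0.25, limma adjusted p = 0.024), with 428 TPM in rapamycin 1 and 193 TPM in rapamycin 2. That is 8.33% of the list passing as higher, beside 12.0% of all genes.

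Markers of immune cells moved with these genes in part. The 4 T cell markers (Cd3e, Cd3g, Cd8a, Cd4) summed to 3.1 and 3.5 TPM with vehicle, 16.7 and 9.5 with loratadine, 18.1 and 58.1 with rapamycin and 31.0 and 26.5 with both drugs, and 3 of 4 passed as higher for rapamycin. The 4 markers of antigen-presenting cells (Cd74, H2-Aa, H2-Ab1, Itgax) summed to 469 and 1053 TPM with vehicle, 3129 and 861 with loratadine, 2785 and 7909 with rapamycin and 3327 and 4396 with both drugs, and 3 of 4 passed as higher for rapamycin. None of these markers was at 0 in any tumor, but 2 of the 4 T cell markers in vehicle 1 and 3 in vehicle 2 were at or under 1 TPM. The 4 leukocyte markers summed to 191 and 384 TPM with vehicle, 387 and 377 with loratadine, 252 and 629 with rapamycin and 367 and 546 with both drugs, and 0 of 4 passed. The 4 macrophage markers summed to 186 and 353 TPM with vehicle, 232 and 238 with loratadine, 149 and 269 with rapamycin and 150 and 277 with both drugs. For rapamycin 3 of these 4 had a negative log2 fold change and 1 a positive one (median -0.20), and 0 passed. The part of immune cells in these values was not tested.

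**Figure D5:**
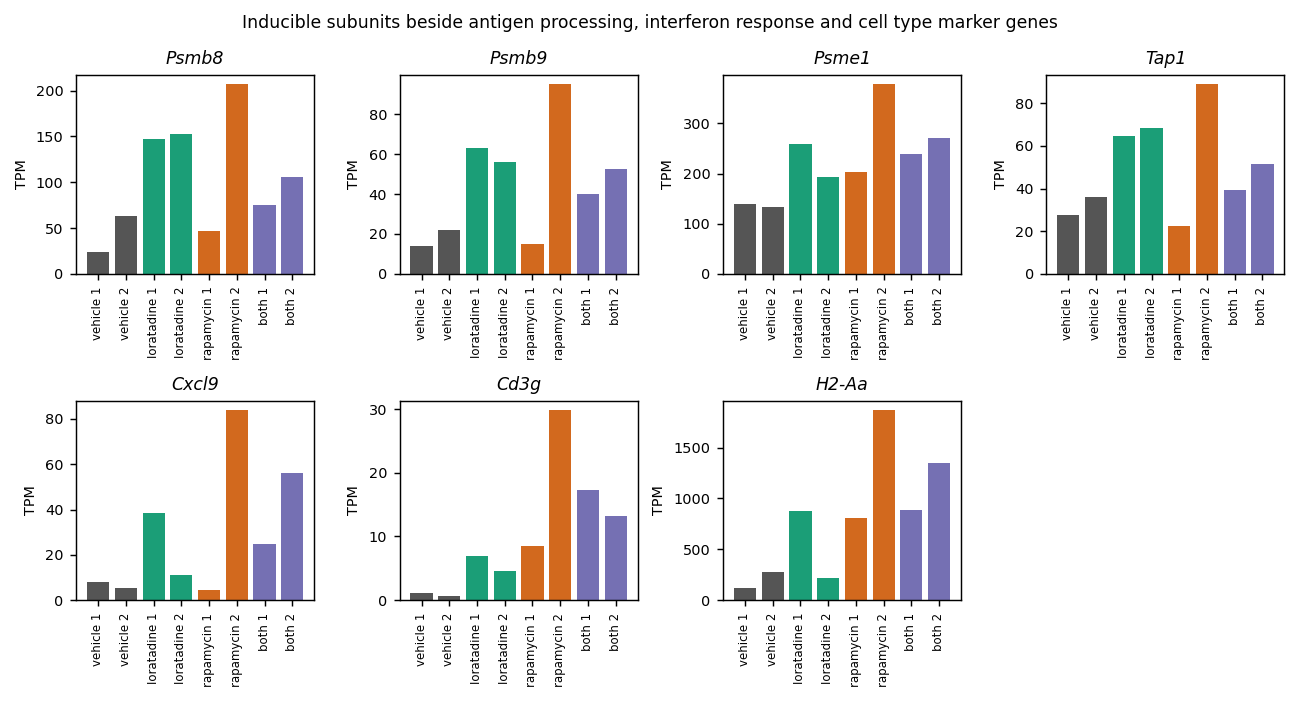
TPM (vertical axes, from 0) in each of 8 tumors for the inducible genes Psmb8, Psmb9 and Psme1, the peptide transporter Tap1, the interferon response gene Cxcl9, the T cell gene Cd3g and the class II gene H2-Aa. Rapamycin 2 is highest in all 7 panels, while rapamycin 1 is low for Psmb8, Psmb9, Tap1 and Cxcl9 and above vehicle for Psme1, Cd3g (8.47 TPM) and H2-Aa (805 TPM).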

How the data were processed

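RNA sequencing of 8 tumors was used. The methods describe trimming of single-end reads, Kallisto on mouse mm9 and summing to genes with tximport and Ensembl annotation, while bedtools, SAMtools 0.1.18, STAR 2.4.0f1 and mm9 are listed in the submitters' processing notes. Which route made the numbers could not be settled. The authors deposited TPM per gene in 2 tables, equal to within 5e-07 TPM, of which the first served here. TPM keeps no depth, so standard errors rest on the spread between tumors, which limma moderates over genes. A p-value sets a difference against its standard error. In the model with both drugs that spread also holds any interaction of the drugs.

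Members, roles and lists were chosen with earlier results of these data known. From the TPM, log2(TPM + 1) was tested with limma 3.58.1 (R 4.3.3), using moderated variances with a trend on mean level, two-sided p-values and Benjamini-Hochberg adjustment over 15095 genes at 0.05. Fold changes on this scale understate those of low genes, and percentages lower refer to TPM + 1. The test was checked on simulated data. Members given in full were the cutting subunits, the 2 of each other role with the largest change for rapamycin and a mean of at least 5 TPM in a treatment, any that passed against the main direction or for loratadine, and the tissue-restricted genes. Of other lists up to 3 genes each were to be named by smallest p for rapamycin, and further ones were chosen after their values were seen. Alternatives changed the pseudocount (0.1, 0.5), the filter (none, or mean 5 TPM and more), the scaling (median-of-ratios, quantile), limma's settings (no trend, robust, array weights), the table, the tumors (each left out), and the model (4 group means, tumor side, code letter as block, compared groups only). Of the 48 members 47 have a position in NCBIM37 (mm9), which gave overlapping genes. Paaf1 and Cct6a were not matched by name. Plots used matplotlib 3.10.9 and Python 3.11.15. Some genes of the lists are not reported here.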

Additional observations from a re-analysis of the deposited data

Results flagged for a closer look

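The 21 members given in full were examined for a tumor far from the other 3 of its arm, with and without each drug, which makes 84 groups of 4 tumors. A single tumor stood far off, by the gap to its neighbour over the range of the group, in 5 of them, and chance gives about 1 in 20. Among tumors without loratadine, Psmb6 was low in vehicle 1 (222 TPM), Psmb7 was high in vehicle 2 (258 TPM) and Psmb9 was high in rapamycin 2 (95.1 TPM). Psmd12 was highest of the tumors with rapamycin in both 2 (77.6 TPM), the tumor with muscle markers, and Psmd14 was highest of the tumors without rapamycin in vehicle 2 (203 TPM). No member differed between the drug combinations by the test of the interaction.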

How the results depend on the processing

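The count of members lower with rapamycin (7) was 11 with median-of-ratios scaling, 12 with array weights and 1 with tumor side in the model, and 1 to 7 with 1 tumor left out. The share of all genes passing as lower was then 10.8% with median-of-ratios scaling, 12.6% with array weights, 3.28% with tumor side in the model, and 3.22% to 7.79% with 1 tumor left out. The added members were Psma6, Psmb7, Psmd1 and Psmd5 with median-of-ratios scaling, and Psma4, Psmb5, Psmb7, Psmd1 and Psmd5 with array weights. The count of higher members was 1 without the filter (Psmb11, under 1 TPM in all tumors) and 0 to 1 with 1 tumor left out. The median log2 fold change of the members for rapamycin was -0.16 with median-of-ratios scaling and -0.16 with array weights, and that for loratadine 0.029 with median-of-ratios scaling and 0.024 with tumor side in the model. Loratadine gave 0 to 1 members with 1 tumor left out. For rapamycin against vehicle (6 in either direction) the count was 1 without the filter, without the trend and with array weights, 0 with only the groups compared, and 0 to 6 with 1 tumor left out. For both drugs against vehicle (3) it was 1 without the filter and without the trend, 5 with median-of-ratios scaling (all lower), 5 with array weights and 5 with only the groups compared (each 3 lower and 2 higher), and 0 to 6 with 1 tumor left out. Shares of all genes for the pairs under these settings are not given here. The cause of these changes was not tested. Where a treatment kept 1 tumor, that tumor was assumed to vary like the others. No paired analysis was possible because the labels give no replicate numbers, apart from the block on the letter of the tumor codes for loratadine against vehicle, which gave 0 members. With 2 tumors a treatment and no depth given, small changes of single genes can be missed.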
